A study of Mus musculus with 14 samples.

Results

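The LIM homeobox genes analysed were Lhx1, Lhx2, Lhx3, Lhx4, Lhx5, Lhx6, Lhx8, Lhx9, Isl1 and Isl2. They were listed by family name, with earlier results of these data known, and are 10 of the 21938 protein-coding genes on the assembled mouse chromosomes. For each gene, the deposited sites of H3K27me3 were counted and measured in 3 stretches, namely 1 kb on either side of its annotated start sites (the start site windows), the gene body, and the gene with 50 kb on either side. The data come from iMEF cells, immortalised mouse embryo fibroblasts, in which exon 4 of the endogenous Ash2l had been deleted and which proliferate on FKBP-HA2-ASH2L, human ASH2L carrying an N-terminal FKBP12F36V tag and introduced with a lentivirus. ASH2L belongs to the COMPASS/KMT2 complexes, which methylate H3K4, and the compound dTAG-13 leads to degradation of the tagged protein. According to the labels, 12 H3K27me3 libraries were made in 6 groups of 2 replicates. The groups were a control without dTAG-13 and exposures of 30 min, 2 h, 4 h, 8 h and 16 h. The 2 input libraries were a control and one with dTAG-13, whose title gives no time. The deletion and the fusion protein were common to all groups, controls included, and the cell line is a single selected clone. The deposited list of 153983 sites covers all samples together. It gives a position for each site and no value for any library, so no site can be assigned to a group, no control was compared with a treated group, and the read depth behind each site is unknown.

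LIM homeobox genes encode transcription factors in which zinc-binding LIM domains, through which partner proteins dock, precede a DNA-binding homeodomain. They act in the embryo, where combinations of them define classes of neurons in the spinal cord and the forebrain, and also the pituitary, the kidney, the gonads, the limbs and the heart. H3K27me3 is set by Polycomb repressive complex 2 and is known to lie in wide domains over developmental regulators that a cell type does not use. In fibroblasts, several of these genes belong to programmes of other tissues, but the list carries no expression value for any of them.

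The members were read against the GENCODE M21 annotation of GRCm38 and lie on 7 chromosomes. Sequences from the RefSeq promoter table (GRCm38.p6) are shown for the members between which the cover by sites differed most. Each is the 250 bases before an annotated RefSeq start, 5′ to 3′ on the strand of the gene, with CG dinucleotides in capitals, because CpG-rich DNA is the sequence on which Polycomb complexes are known to assemble in mammals. Lhx2, among the members with wholly covered start site windows, is set beside its closest relative Lhx9, which had the lowest share. The starts of Lhx6, 1 outside any site and 1 inside, and the start of Isl1, which had the most CG among the members, were added after their values had been seen.
Lhx2, chr2:38339031-38339280, plus strand, covered: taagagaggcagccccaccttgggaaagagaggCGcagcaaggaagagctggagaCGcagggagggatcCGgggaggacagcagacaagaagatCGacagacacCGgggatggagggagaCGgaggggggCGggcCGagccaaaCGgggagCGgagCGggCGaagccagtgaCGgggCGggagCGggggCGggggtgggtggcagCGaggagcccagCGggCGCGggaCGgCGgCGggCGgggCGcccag
Lhx9, chr1:138842445-138842694, minus strand, no covered base: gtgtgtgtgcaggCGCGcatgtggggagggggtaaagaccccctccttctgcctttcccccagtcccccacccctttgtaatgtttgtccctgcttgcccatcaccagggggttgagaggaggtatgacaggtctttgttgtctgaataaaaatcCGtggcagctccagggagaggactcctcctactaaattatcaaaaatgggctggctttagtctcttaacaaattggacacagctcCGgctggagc
Lhx6, chr2:36105409-36105658, minus strand, no covered base: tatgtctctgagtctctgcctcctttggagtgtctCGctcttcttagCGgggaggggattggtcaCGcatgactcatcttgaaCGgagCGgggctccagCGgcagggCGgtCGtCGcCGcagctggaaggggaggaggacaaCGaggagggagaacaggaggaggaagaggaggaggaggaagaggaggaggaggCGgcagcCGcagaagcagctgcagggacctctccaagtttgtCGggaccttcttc
Lhx6, chr2:36104534-36104783, minus strand, covered: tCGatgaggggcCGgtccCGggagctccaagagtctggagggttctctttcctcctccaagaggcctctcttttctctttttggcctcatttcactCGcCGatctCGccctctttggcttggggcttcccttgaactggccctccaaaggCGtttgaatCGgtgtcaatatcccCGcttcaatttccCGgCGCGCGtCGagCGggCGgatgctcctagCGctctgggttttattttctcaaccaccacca
Isl1, chr13:116309689-116309938, minus strand, covered: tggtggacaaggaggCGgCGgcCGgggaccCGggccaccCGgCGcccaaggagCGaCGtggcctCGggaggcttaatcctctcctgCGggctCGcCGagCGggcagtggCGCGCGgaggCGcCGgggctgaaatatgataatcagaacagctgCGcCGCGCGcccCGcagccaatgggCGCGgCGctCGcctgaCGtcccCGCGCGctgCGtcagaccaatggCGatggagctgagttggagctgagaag

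The stretch before Lhx2 held 25 CG at a GC content of 72.8%, and that before Lhx9 held 4 at 53.6%. The first precedes the 5′ end of Lhx2, but the second precedes an inner start of Lhx9, and the 5′ end of Lhx9 had a GC content of 60.2% in the 500 bp on either side and lay in an island of 1405 bp without a site. The uncovered stretch of Lhx6 held 14 CG and its covered stretch 17, so these stretches were near each other in CG while their cover was 0% and 100%. Isl1 held 33. Over the whole 300-base windows of the table, which run to 50 bases past the start, 9 members had 13 windows. The 11 windows of Lhx1, Lhx2, Lhx3, Lhx4, Isl1, Isl2 and Lhx8 and of the inner starts of Lhx6 lay wholly under sites. The remaining 2, of Lhx6 and of Lhx9, had no covered base. CG counts ranged from 4 in the window of Lhx8, which was covered, to 37 in that of Isl1, against a median of 7 over the 32851 windows of the table. The letters TAATTA, which read the same on both strands and hold the core that homeodomains bind, were in 0 of the 13 windows and in 5.29% of all windows.

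All 10 members had at least 1 site in their start site windows. The same held for 31.5% of all protein-coding genes. In 8 of the 10 a site there was at least 2 kb wide, against a background of 16.1%, and in 6 the start site windows were covered from end to end, against 5.44%. At least 50% of the gene body was covered in 8 members, against 9.35% of all genes. When the flanks were included, 4 members (Lhx1, Lhx2, Lhx3 and Lhx5) had at least 50% of the gene and its 50 kb on either side covered, against 3.81%. The median covered share of the members was 100% in the start site windows, 92.0% in the gene body and 32.1% in the gene with its flanks. Over all protein-coding genes the median was 0% in the start site windows and in the body and 3.81% with the flanks. The upper quartile and the 90th percentile of all genes were 9.95% and 69.2% in the start site windows. Lhx6 and Lhx9, at 29.8% and 3.30%, were the members below that 90th percentile, and Lhx9 was also below the upper quartile. Neighbouring genes and overlapping windows share sites, so these shares describe the list and no test was made on them.

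**Figure D1:**
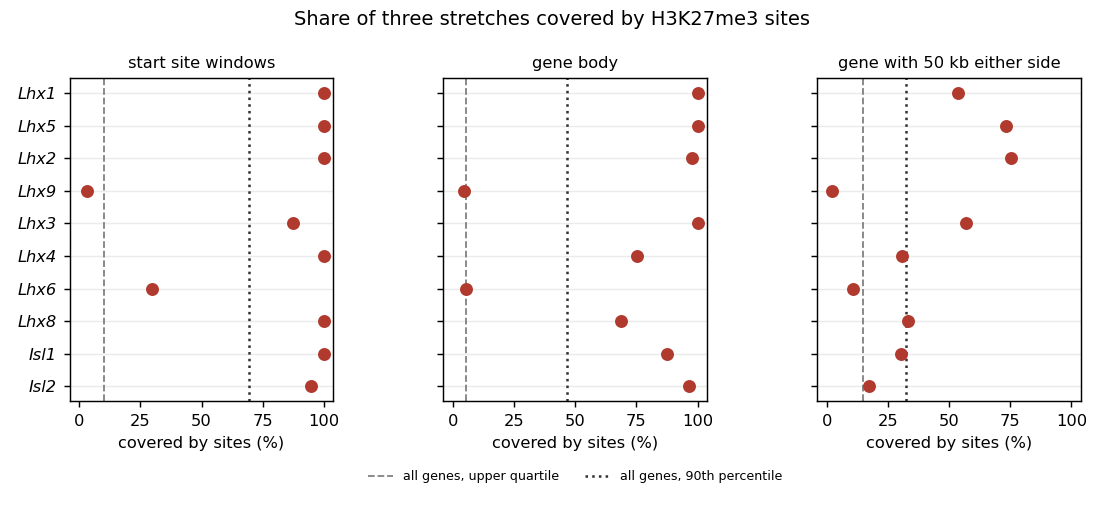
Share of the start site windows (1 kb on either side of every annotated start), of the gene body and of the gene with 50 kb on either side that lies under H3K27me3 sites (%), with 1 point for each LIM homeobox gene in a single list without replicates; the lines mark the upper quartile and the 90th percentile of all 21938 protein-coding genes. Lhx6 and Lhx9 lie at the left of the first 2 panels at 29.8% and 3.30% and at 5.42% and 4.47%, while the other 8 members lie at 68.7% or above.

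The widths separated the members further. In all, 176 sites lay within 50 kb of the 10 genes, with a median width of 681 bp against 455 bp over the whole list. Of them, 47 were at least 2 kb wide and 14 were at least 10 kb wide, widths reached by 11.3% and 0.944% of all sites in the list. The smallest width in the list, 200 bp, was found for 15. The 15 sites that overlapped a start site window had a median width of 7289 bp, and 12 of them were at least 2 kb wide. A wide site overlaps a window more readily than a narrow one, and these widths were not set against those of sites near all genes. A site lay directly over the 5′ end of the gene record in 8 members, all but Lhx6 and Lhx9, against 16.9% of all protein-coding genes.

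**Figure D2:**
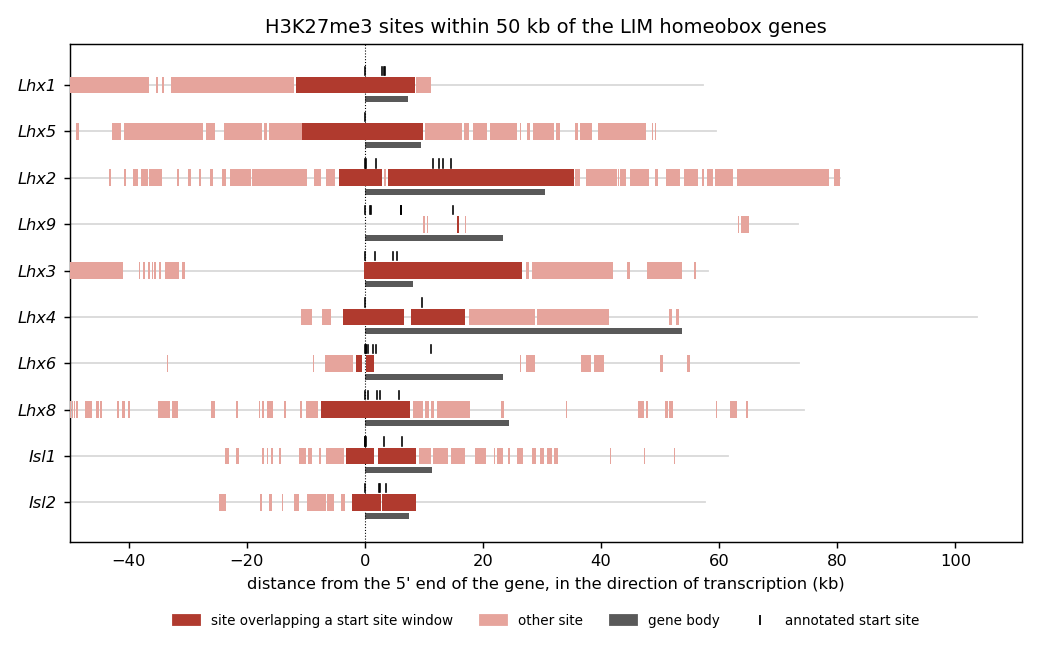
Map of the H3K27me3 sites (red, darker where a site overlaps a start site window) from 50 kb before to 50 kb after each LIM homeobox gene, drawn to scale against the distance from the 5′ end in the direction of transcription (kb), with the gene body in grey and annotated start sites as black ticks. The sites over Lhx1, Lhx5, Lhx2 and Lhx3 were 20.1, 20.4, 31.6 and 26.7 kb wide, whereas Lhx9 has 4 sites inside the gene of at most 373 bp.

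Lhx1 and Lhx5 are closest relatives. Lhx1 is known for its part in the head organizer of the early embryo, in the kidney and in Purkinje cells, and Lhx5 for its part in the developing forebrain. Lhx1 (ENSMUSG00000018698.15, chr11:84518284-84525535, minus strand) has 4 annotated start sites, and a single site of 20054 bp at chr11:84517112-84537165 covered all of them and the whole gene. This site began 11.6 kb before the 5′ end and ended 1.17 kb past the 3′ end. It was followed upstream, after a gap of 400 bp, by a site of 20717 bp, and farther upstream by a site of 26046 bp, the widest within 50 kb of the gene. Most of the cover near Lhx1 therefore lay before the gene, and the share with both flanks was 53.6% in 6 sites. Lhx5 (ENSMUSG00000029595.9, chr5:120431699-120441223, plus strand) has 1 annotated start site and was likewise covered over its whole length by a single site, of 20447 bp at chr5:120421141-120441587. That site ran from 10.6 kb before the 5′ end to 364 bp past the 3′ end. Lhx5 differed from Lhx1 in its flanks, where sites lay on both sides of the gene and 73.2% of the stretch was covered by 23 sites. The 2 genes were thus alike in the cover of start sites and body (100% in both) and 19.5 percentage points apart with the flanks.

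Lhx2 and Lhx9 differed most among the pairs of closest relatives. Lhx2 is known to be needed for the eye, the cerebral cortex and hair follicle stem cells, and Lhx9 for the formation of the gonads. Lhx2 (ENSMUSG00000000247.11, chr2:38339281-38369733, plus strand) has 7 start sites in 2 groups along the gene, and all 7 windows were wholly covered. The starts at the 5′ end lay under a site of 7289 bp (chr2:38334895-38342183) and the inner starts under a site of 31593 bp (chr2:38343140-38374732), which ran 5.00 kb past the 3′ end and was the widest site at the start sites of any member. Between them lay a site of 314 bp, with gaps of 305 and 337 bp on its sides, so 97.9% of the gene body was covered. Only 0.387% of all protein-coding genes had a site of at least this width in their start site windows. The flanks of Lhx2 were covered as well, with 75.4% of the whole stretch under 32 sites, the highest share of the 10 genes. This rank depended on the setting. Lhx5 was higher with flanks of 10 kb, at 95.9% against 91.1%, and with flanks of 100 kb, at 52.9% against 46.5%.

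Lhx9 (ENSMUSG00000019230.14, chr1:138825186-138848577, minus strand) also has 7 start sites, and 6 of their windows held no site. The nearest site lay 9866 bp downstream of the 5′ end. Inside the gene there were 4 narrow sites of 373, 200, 272 and 200 bp, which covered 4.47% of the body, and with the flanks 6 sites covered 2.18%. The site of 272 bp (chr1:138832619-138832890) was the only overlap with a start site window, that of a transcript annotated as a retained intron, 15.7 kb downstream of the 5′ end. Of its bases, 189 were annotated as coding sequence. The start site windows of Lhx2 and Lhx9 thus differed by 96.7 percentage points in cover, the bodies by 93.4 points and the stretches with flanks by 73.2 points. Lhx9 counts as a gene with a site through this narrow site alone, and had none when sites under 500 bp were left out. In all, 28.6% of all protein-coding genes had a site of at least this width at a start site. Repeats took up 43.0% of the stretch around Lhx9, the highest share of the members, against 17.1% to 29.2% around the others, but 15.3% of its gene body. Their part in the low cover was not tested.

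Lhx3 and Lhx4 are the pair known for the pituitary and for motor neurons. Lhx3 (ENSMUSG00000026934.15, chr2:26200212-26208289, minus strand) lay under a single site of 26736 bp at chr2:26181764-26208499. The site reached 210 bp before the 5′ end and 18.4 kb past the 3′ end, so it extended almost wholly in the direction of transcription, unlike the sites over Lhx1 and Lhx5. The body was covered to 100%, and the start site windows to 87.4%, because the window of the 5′ end was covered to 60.5% and those of the other 3 starts wholly. The edge of this site lay 137 bp from Qsox2, a gene of a sulfhydryl oxidase, whose start site windows and body had no site. Lhx4 (ENSMUSG00000026468.14, chr1:155698031-155751684, minus strand) is the longest member and was covered by a row of sites in place of a single one. Sites of 10363, 9086, 11209 and 12285 bp followed each other from 3.69 kb before to 41.4 kb after the 5′ end, with gaps of 1139, 766 and 222 bp. Both start sites were wholly covered, as was 75.3% of the body. Farther towards the 3′ end only sites of 512 and 643 bp were listed in the gene. Its exons were covered to 29.9% and its introns to 80.8%, and its flanks had 7.05% cover.

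Lhx6 and Lhx8 are known for neurons of the basal forebrain, Lhx6 for inhibitory interneurons that migrate to the cortex and Lhx8 for cholinergic neurons, and both for jaw and tooth mesenchyme. Lhx8 (ENSMUSG00000096225.7, chr3:154306294-154330659, minus strand) had a site of 15214 bp at chr3:154322932-154338145, which ran from 7.49 kb before to 7.73 kb after the 5′ end and covered all 5 start sites. Further sites within the gene brought the body to 68.7%, and 34 sites, the most of any member, gave 33.3% with the flanks. Lhx6 (ENSMUSG00000026890.19, chr2:36081953-36105408, minus strand) had no site over its 5′ end. A site of 1272 bp (chr2:36103883-36105154) began 254 bp downstream of it and one of 973 bp (chr2:36105948-36106920) lay 540 to 1512 bp upstream. The gap of 793 bp between them held 3 of the 7 annotated start sites. A site of 4721 bp farther upstream, 1.94 to 6.66 kb before the 5′ end, was the widest near the gene and overlapped no start site window. With 29.8% of the start site windows and 5.42% of the body covered, Lhx6 was 70.2 and 63.3 percentage points below Lhx8. The first share of Lhx6 depended on the starts used, at 60.4% with the 5′ end alone and 51.7% with RefSeq start sites. Lhx6 and Lhx2 lie 2.23 Mb apart on chromosome 2, and cover in the body was 5.42% and 97.9%.

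Isl1 and Isl2 take part in the formation of motor neurons, and Isl1 is also known for cardiac progenitors and for pancreatic islet cells. Isl1 (ENSMUSG00000042258.13, chr13:116298281-116309689, minus strand) had a site of 4728 bp over the 5′ end and one of 6381 bp inside the gene, 679 bp apart. All 5 start site windows were wholly covered, and 87.6% of the body. Isl2 (ENSMUSG00000032318.12, chr9:55538672-55546180, plus strand) had a site of 4854 bp over the 5′ end and one of 5811 bp that ended 1.23 kb past the 3′ end, 274 bp apart. This gap lay within the windows of the inner starts, which brought the start site windows to 94.7%, while 96.4% of the body was covered. These sites were narrower than those of Lhx1, Lhx2, Lhx3, Lhx5 and Lhx8: 6.74% and 7.53% of all protein-coding genes had a site at least as wide as those of Isl1 and Isl2, against 0.387% to 1.99% for the other 5 genes. Isl1 had 27 sites within 50 kb of the gene and Isl2 had 13, with 30.2% and 17.2% of the stretch covered, so the 2 genes were alike at their start sites and 13.0 percentage points apart with the flanks.

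A site ends where the peak caller ended it, so neighbouring sites were also joined. With sites less than 1 kb apart joined, the stretch over the start sites was 43903 bp wide in Lhx1, 45159 bp in Lhx2, 42303 bp in Lhx3, 33568 bp in Lhx4 and 50343 bp in Lhx5. It was 28649 bp wide in Lhx8, 24635 bp in Isl1 and 10939 bp in Isl2, against 8189 bp in Lhx6 and 1461 bp in Lhx9. Joining thus raised Lhx5 to the widest and left Lhx6 and Lhx9 as the narrowest. With gaps of up to 5 kb joined, Lhx1 reached 274993 bp and Lhx2 130088 bp, and Lhx9 stayed lowest at 7282 bp.

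Averaged over the 10 genes, 87.5% of the first kb downstream of the 5′ end was covered and 76.7% of the kb before it. Over all protein-coding genes the same bins had 17.3% and 15.1%, and over 15 homeobox genes of other classes, among them Dlx1 to Dlx6 and Msx1 to Msx3, 45.2% and 44.6%. The members stayed above all genes out to 50 kb before the 5′ end, where 27.6% was covered against 11.0%. At 20 kb downstream the values were 41.7% and 9.54%. The 15 other homeobox genes had 21.8% and 36.3% in these bins, and their mean was above that of the members in 23 of the 100 bins. These are means over 10 genes with values from near 0% to 100%, and no spread was computed.

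**Figure D3:**
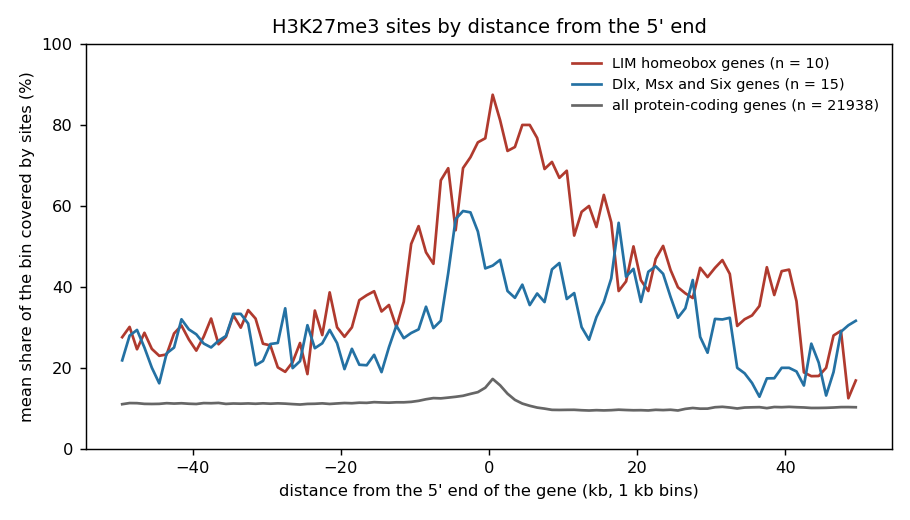
Mean share of each 1 kb bin covered by H3K27me3 sites (%) against the distance from the 5′ end in the direction of transcription (kb), for the 10 LIM homeobox genes, the 15 homeobox genes of other classes and all 21938 protein-coding genes. The members reach 87.5% in the first kb, those 15 genes 45.2% and all genes 17.3%.

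The members have 46 different annotated start sites, of which 28 had wholly covered windows and 7 had no site in the window. The 7 belonged to Lhx9 (6) and Lhx6 (1). Outside these genes, 28 of 32 start sites were wholly covered, and the other 4, 1 of Lhx3 and 3 of Isl2, were covered to between 60.5% and 86.9%. CpG-rich start sites were those with 50% GC or more, and an observed to expected CpG ratio of 0.6 or more, in the 500 bp before and the 500 bp after. Of 24 CpG-rich start sites 16 were wholly covered, and of the 22 others 12 were. No share over the start sites of all genes stands beside these counts. Starts of the same gene can share most of a window, as do that at the 5′ end of Isl1 and another 4 bp from it. The start of Lhx4 at the 5′ end was wholly covered at a CpG ratio of 0.0883, and that of Lhx1 at 0.840. The start with the highest ratio, 0.895, was an inner one of Isl2, covered to 86.9%. Lhx6 had CpG-rich starts with 35.5% to 63.2% cover. By the start at the 5′ end, 5 members (Lhx1, Lhx2, Lhx5, Lhx6 and Isl1) were CpG-rich, and 4 of them had a site of at least 2 kb in the start site windows. Among all 9740 protein-coding genes with a CpG-rich 5′ end the share was 14.3%. The other 5 members also had 4 genes with such a site, against 2138 of the 12198 protein-coding genes without a CpG-rich 5′ end.

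**Figure D4:**
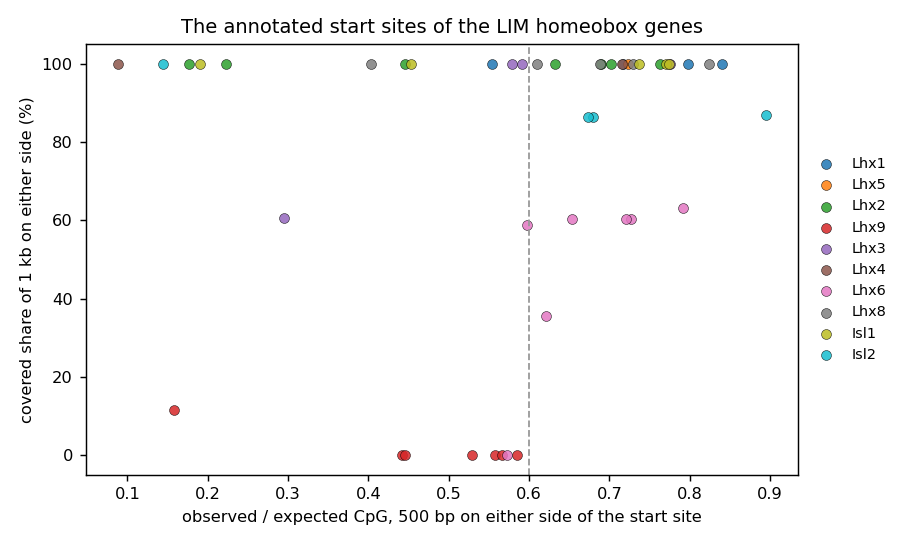
Each point is 1 of the 46 annotated start sites of the LIM homeobox genes, with the observed to expected CpG ratio of the 500 bp on either side on the horizontal axis and the share of the 1 kb on either side covered by H3K27me3 sites (%) on the vertical axis; the dashed line marks the ratio of 0.6. The 28 wholly covered starts span CpG ratios from 0.0883 to 0.840, and the starts of Lhx9 lie at 0% except 1 at 11.6%.

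CpG islands were searched for in the sequence within 50 kb of the genes, as stretches of 500 bp or more made of joined 200 bp windows, each with 50% GC or more and a CpG ratio of 0.6 or more. Of 53 islands, 33 were wholly covered, 5 partly and 15 had no site. The 5 islands of Lhx9 had none, and of the 7 islands of Lhx6 5 had none and 2 were covered in part. All islands near Lhx2 (5), Lhx8 (3) and Isl1 (3) were wholly covered, as were 8 of 9 near Lhx5 and 5 of 6 near Lhx1. Near Lhx4 3 of 6 were, with the 2 uncovered islands outside the start sites. No share over the islands near all genes stands beside these counts, so they describe the members only. In each of the 10 stretches, covered bases held more CpG than uncovered ones, as they did for 68.6% of the 19301 protein-coding genes with both kinds of bases within 50 kb. In Isl2 it was 27.5 against 7.08 CpG per kb, in Lhx1 16.5 against 8.29, in Lhx9 21.5 against 11.2 and in Lhx6 15.1 against 12.2. Repeats, the lower-case bases of the RefSeq sequence, were a smaller share of the covered than of the uncovered bases in all 10 stretches, from 14.6% against 17.4% around Lhx6 to 13.0% against 43.7% around Lhx9. The same direction was found for 77.6% of those 19301 genes. Reads in repeats can be lost in alignment, and the part of this in the listed sites was not tested.

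The wide sites at the members' start sites overlapped no other protein-coding gene. They overlapped 8 non-coding genes, among them Lhx1os beside Lhx1, Gm27199 at Lhx5 and AI606473 at Lhx8, and in 7 of the 8 the start site windows were wholly covered by the same sites. Within 50 kb of the members lay 16 other protein-coding genes. A site was listed at a start site of 7 of them, against 31.5% of all protein-coding genes. For 5 it was at least 2 kb wide, against 16.1%. Ccdc187, 35.2 kb from Lhx3, had one of 11171 bp, and Sds and Sdsl near Lhx5, genes of serine dehydratases, shared one of 8143 bp. The 9 without a site at a start site included Qsox2 beside Lhx3, Acbd6 and Qsox1 beside Lhx4, and Etfa and Scaper beside Isl2. Aatf, 4761 bp past the 3′ end of Lhx1, had a site of 2512 bp that covered 2.38% of its start site windows.

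Other genes of the same pathways were looked at from fixed lists. Among 12 genes of LIM partners and relatives, 7 had a site at a start site and 5 one of at least 2 kb, with a median covered share of 7.24%. Lmx1b, a LIM homeobox gene needed for the dorsal limb, had the widest at 51657 bp, and Lmx1a had one of 9505 bp. Lmo2, an adaptor of blood cell transcription factors, had one of 19655 bp, and Lmo1 and Lmo3 had ones of 3072 and 4503 bp. Ldb1 and Ldb2, the cofactors that bind LIM domains, had no site at a start site, nor had Lmo4, Ssbp2 and Ssbp4. Ssbp3 had sites of at most 578 bp, and Rlim had 1 of 200 bp.

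Of the 6 motor neuron genes, to which Isl1, Isl2, Lhx3 and Lhx4 are tied in the spinal cord, 6 had a site and 5 had wholly covered start site windows. Olig2, a factor of their progenitors, had the widest at 33872 bp. Chat and Slc18a3, which make and load acetylcholine, shared 1 site of 17103 bp, and Slc5a7, the choline transporter, had 1 of 304 bp. Of the 6 forebrain interneuron genes 5 had a site, among them Gad1, which makes the transmitter GABA, with one of 14970 bp, and Dlx2 was without one. The median covered share was 100% in both lists, as it was for the members.

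Of the 6 kidney and gonad genes 5 had a site and 1 had wholly covered windows, Pax2 with a site of 91280 bp, and the median covered share was 65.0%. Osr1, a factor of the intermediate mesoderm, had no site there. Of the 7 pituitary genes 4 had a site and the median covered share was 47.9%. Pitx1 had the widest, 12988 bp. The hormone genes Cga and Tshb and the factor Pou1f1 had none at a start site, although 35.6% of the body of Cga was covered.

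Of 10 fibroblast genes, looked at because the cells are fibroblasts, 4 (Col1a1, Vim, Pdgfra and Prrx1) had sites of at most 534 bp at a start site. A site there was listed for 31.5% of all protein-coding genes. Of the 10, 0 had a site of at least 2 kb, against 16.1% of all genes. Their median covered share was 0%, as it was over all genes, so these values cannot check the cell type. A list of a repressive mark shows no expression, and the cell type itself was not tested.

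Homeobox genes of other classes were looked at beside the members. Of 9 Dlx and Msx genes 7 had a site, 4 one of at least 2 kb and 3 wholly covered windows, with a median of 11.9%. Dlx4 had the widest at 16984 bp, and Dlx2 and Dlx5 had no site at a start site. Six2, Six3 and Six6 had wholly covered windows, with a site of 26368 bp at Six3, and Six4 and Six5 had no site there. The differences between the families were not tested.

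**Figure D5:**
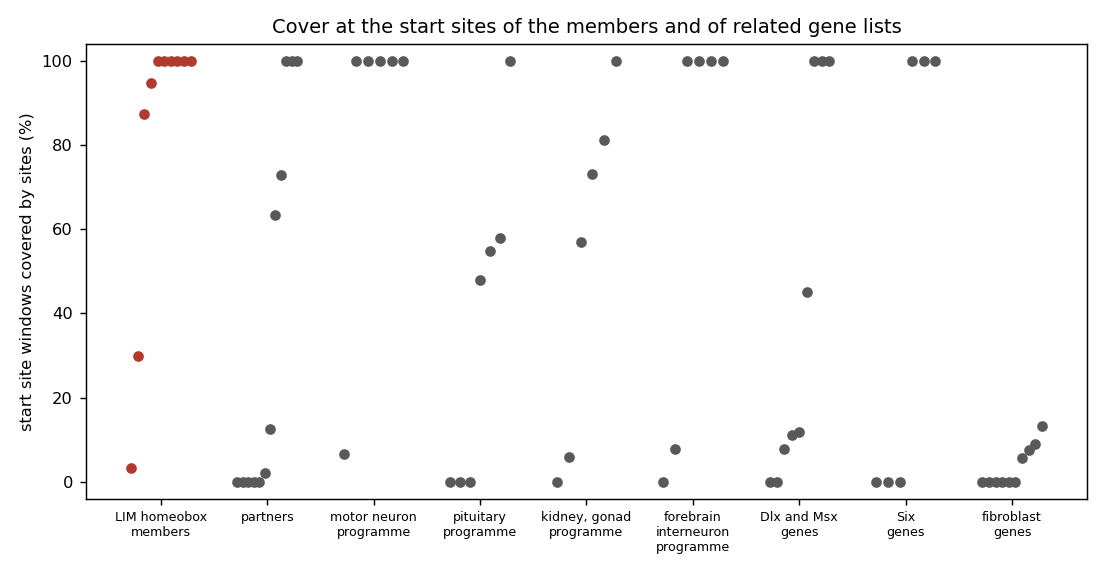
Share of the start site windows covered by H3K27me3 sites (%), with 1 point for each gene, for the 10 LIM homeobox genes (red) and for lists of partners, of tissue programmes, of other homeobox families and of fibroblast genes (grey). Of the members, 8 lie at 87.4% or above, and the fibroblast genes lie at 13.2% or below.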

How the data were processed

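The files hold H3K27me3 ChIP-seq of 12 libraries and 2 inputs. The authors used Trim Galore for trimming and BWA for alignment to mm10, filtered alignments with SAMtools, merged replicates with Picard, called broad peaks with MACS (MACS2 in the submitters' processing notes) and brought the sites of all samples together; thresholds and versions are not given in the sources used here. The deposited list holds start and end positions only, taken as 0-based with an open end (smallest width 200 bp) and printed from 1. There were 0 further columns of values per library. A stretch without a site may still carry the mark. The study calls its replicates biological, and no value here rests on them.

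Sites were intersected with protein-coding genes of GENCODE M21, an earlier release than the study's, in Python 3.11.15 with numpy 2.4.6. The functions were tested on simulated sites. Promoter sequences and CpG content came from the RefSeq GRCm38.p6 sequence. The 10 members and all gene lists were chosen with earlier results of these data known, and the named genes followed a rule: all members, the widest and the absent genes of each list, the neighbours under members' sites, and genes named beside them after their values were seen. Some listed genes are not reported here by name. No test was made, because 1 list without values per library allows none between groups. Alternatives joined sites, required wider sites, or changed start sites, windows and flanks. Alignments of the 74 patch sequences of the assembly with minimap2 2.31-r1302 found stretches of at least 5 kb near 1 member, Lhx9, in its flanks and no nearer than 14.4 kb to the gene.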

Additional observations from a re-analysis of the deposited data

How the results depend on the processing

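The count of members with a site, the count with a site of at least 2 kb and the median shares of start site windows and bodies stayed within 1.5 times their values under each alternative. The first of these counts fell from 10 to 9 where Lhx9 lost its site, and was 8 of the 9 members with RefSeq start sites. The second rose from 8 to 9 with sites less than 1 kb apart joined or with windows of 2 kb. It rose to 10 with sites less than 5 kb apart joined. Neither these counts nor these median shares had room to rise by 1.5 times, so only falls could have passed this limit. The median share of the genes with flanks moved by more than that. From 32.1% it became 56.3% with sites less than 5 kb apart joined, 64.2% with flanks of 10 kb and 19.6% with flanks of 100 kb. This share therefore depends on how far from the gene it is measured. The members at 50% or more changed as well. With flanks of 100 kb, Lhx2 and Lhx3 fell to 46.5% and 43.6%. With sites less than 5 kb apart joined, Lhx8 and Isl1 rose to 59.6% and 55.7%. With flanks of 10 kb, all members but Lhx6 and Lhx9 were above 50%. Of 229 alternative values for single members, 35 moved by more than 1.5 times, 17 of them for Lhx9 and 5 for Lhx6. In the start site windows, none of the 79 alternative values of the other 8 members moved, and 10 of the 20 of Lhx6 and Lhx9 did. Lhx9 fell to 0% in that window with sites of at least 500 bp only, with the 5′ end only, with protein-coding transcripts only and with windows of 500 bp. It rose to 28.5% with sites less than 5 kb apart joined, since the narrow sites then merge. With the 5′ end only, Lhx6 rose to 60.4% and Lhx3 fell from 87.4% to 60.5%, so these shares were then nearly the same. The start sites of RefSeq, an alternative chosen after the data had been seen, gave 51.7% for Lhx6 and 0% for Lhx9. No paired analysis was possible because the sites used here are positions without values for single libraries, which also leaves no replicate to omit. The depth behind the narrow sites of Lhx6 and Lhx9 is unknown.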
